A study of Mus musculus with 6 samples.

Results

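The 8 genes described here encode the D-type cyclins (Ccnd1, Ccnd2 and Ccnd3), their kinase partners (Cdk4 and Cdk6) and the retinoblastoma family (Rb1, Rbl1 and Rbl2). They were chosen by name as the genes that control passage through G1 of the cell cycle, and they are 8 of the 22180 genes with a row of their own on the array. Signals came from mouse hematopoietic stem cells (HSCs), sorted from bone marrow at steady state as lineage-negative, Sca1-positive, cKit-positive and Flt3-negative cells. The tested cells were Chrm1-/-, without a working gene for muscarinic acetylcholine receptor 1 by the genotype in the labels (3 arrays), and they were set against wild type cells (3 arrays); both are labelled C57Bl/6, and age and sex are not given in the labels. The series asks how this receptor readies HSCs to leave the marrow, and the comparison of its design is Chrm1-/- against wild type without any mobilizing treatment. The labels do not say whether each array is a separate mouse or a pool, and p-values here reflect the spread among these arrays alone, which may be technical.

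D-type cyclins are made when growth signals reach a cell. They bind CDK4 or CDK6, and the active kinases phosphorylate the retinoblastoma proteins, which otherwise hold E2F transcription factors in check and keep the genes of DNA replication silent. Most HSCs in adult marrow rest outside the cycle, and CDK6 in particular is known for governing how quickly a resting stem cell re-enters it.

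All values are log2 signals of 1 array row per gene, so a difference of 1 is a doubling. A row's signal depends on how well its own probes hybridise, and the signal of one gene is therefore not read here as more or less RNA than that of another. The 6 arrays had medians from 6.49 to 6.57. With the arrays of their own genotype, 5 arrays had a mean Pearson correlation of 0.925 or 0.926 over all rows, and wild type replicate 3 had 0.918. With the arrays of the other genotype the means ran from 0.9225 to 0.9288. They were higher than with the own genotype for every array except Chrm1-/- replicate 3, so the arrays did not group by genotype. Kit, the receptor used in the sort, averaged 10.88 ± 0.10 in Chrm1-/- and 10.90 ± 0.05 in wild type (SD, n = 3 each). Of 14 tested HSC markers 7 were higher, 6 lower and 1 equal in Chrm1-/-, among them Cd34 at a difference of 0.06 ± 0.11 (SE) and Procr, a receptor used to purify HSCs, at -0.25 ± 0.10 (SE). Procr read 8.16, 8.19 and 8.24 in Chrm1-/- and 8.40, 8.45 and 8.50 in wild type. Its groups did not overlap, as for 5.79% of all genes tested. In limma its unadjusted p was 0.0393 and its adjusted p 0.996. Flt3, whose protein was gated out, still gave a transcript signal of 10.17 ± 0.19 in Chrm1-/- and 9.99 ± 0.11 in wild type (SD, n = 3 each). Chrm1 itself read 8.16, 7.52 and 7.58 on the Chrm1-/- arrays, against 7.45, 7.44 and 7.67 on the wild type arrays. Its probes are not placed relative to the deleted part in the sources used here, so this row checks nothing about the labels.

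For none of the 8 G1 genes did the difference between genotypes pass the test. All 8 had a mean signal above 6.77, the median of all genes, and so entered the limma fit over 11094 genes. Of the 8, 0 passed an adjusted p of 0.05 in limma, 0 had an unadjusted p under 0.05, and 0 had groups that did not overlap. Over all genes tested these shares were 0%, 2.99% and 5.79%. The members' differences, Chrm1-/- minus wild type, ran from -0.41 to 0.19 with a median of -0.04, beside a median of 0 over all genes tested; 4 were positive and 4 negative, where 50% of all genes tested had a higher and 49.2% a lower mean in Chrm1-/-. For 6 of the 8 the 95% interval of the difference lay inside 1.5-fold in either direction, and for Rb1 and Rbl2 it did not. Each of the 8 had an adjusted p of 0.996 in limma.

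**Figure D1:**
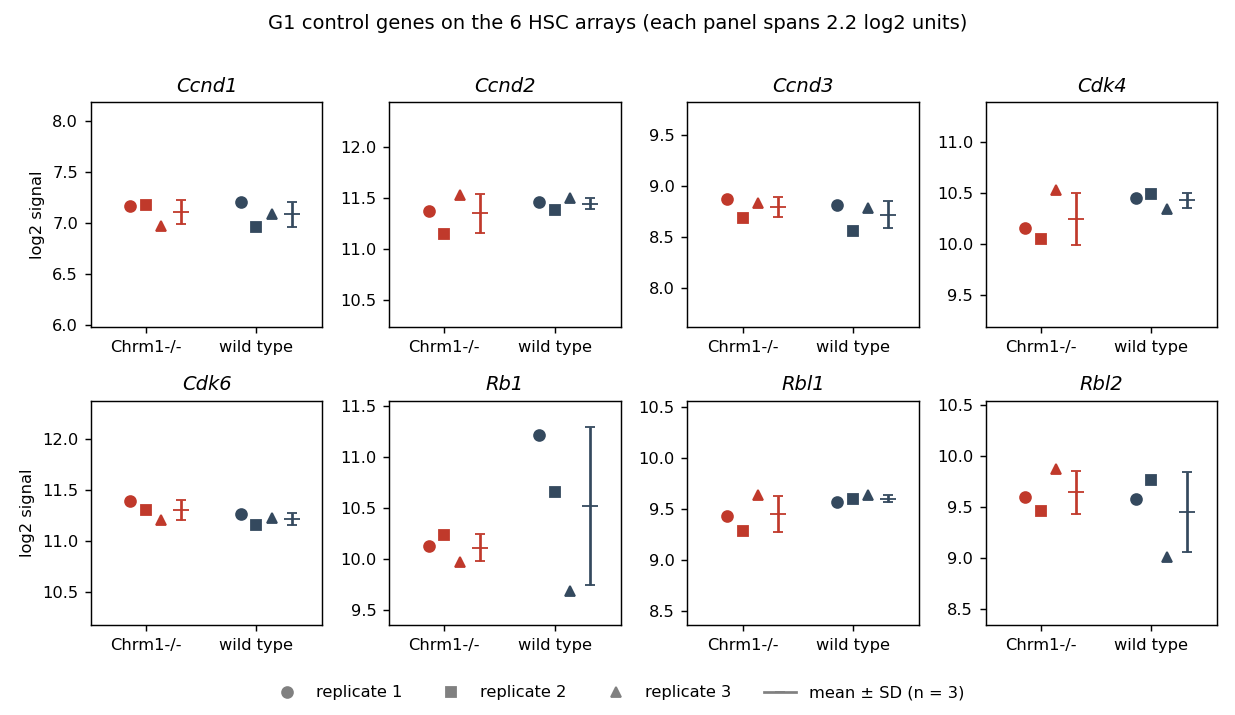
Log2 signal of each of the 8 genes on the 3 Chrm1-/- arrays (left in each panel) and the 3 wild type arrays (right), with the mean and SD of each group as a bar; symbols give the replicate number. Points of the groups overlap in all 8 panels, and the widest spread is that of Rb1 in wild type, from 9.69 to 11.22.

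**Figure D2:**
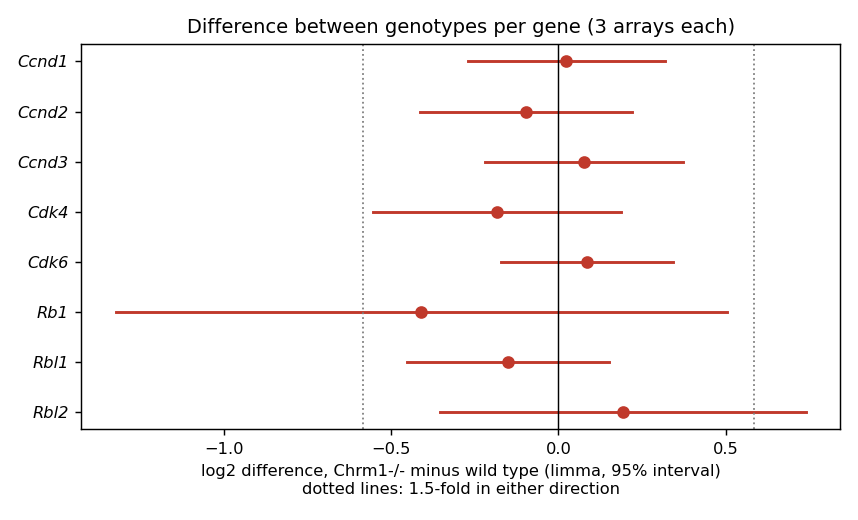
Difference in log2 signal, Chrm1-/- minus wild type, for each gene with its 95% interval from limma; dotted lines mark 1.5-fold. All 8 intervals include 0, and those of Rb1 and Rbl2 pass a dotted line.

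Among the D cyclins, Ccnd2 gave a strong signal, at percentile 98.4 of all genes. Cyclin D2 is the D cyclin that cytokine signals through STAT5 are known to induce in blood cells. Ccnd2 read 11.38, 11.15 and 11.53 on the Chrm1-/- arrays, against 11.46, 11.39 and 11.50 on the wild type arrays. Chrm1-/- replicate 2 was the lowest array and Chrm1-/- replicate 3 the highest, so the 3 wild type values lay inside the range of the Chrm1-/- values. The difference was -0.10 ± 0.13 (SE), with a 95% interval from -0.41 to 0.22 (0.75-fold to 1.17-fold).

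Ccnd3, whose product is the D cyclin of lymphoid and erythroid precursor expansion, read 8.87, 8.68 and 8.83 on the Chrm1-/- arrays and 8.81, 8.56 and 8.78 on the wild type arrays. In each genotype replicate 2 was the lowest, and the groups overlapped over most of their range. Its difference was 0.08 ± 0.12 (SE), with an interval from -0.22 to 0.37. Ccnd1, the D cyclin best known as an oncogene in epithelial and B cell tumours, lay nearest to the signal needed for testing, at percentile 58.5 of all genes. It read 7.17, 7.18 and 6.97 in Chrm1-/- and 7.20, 6.96 and 7.09 in wild type. The highest and the lowest value were both wild type. Its difference was 0.02 ± 0.12 (SE), the smallest in size of the 8, with an interval from -0.27 to 0.32 (0.829-fold to 1.25-fold).

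The kinases differed in how steady they were on the Chrm1-/- arrays, with an SD of 0.095 for Cdk6 and 0.2515 for Cdk4. On the wild type arrays the SDs were 0.0557 and 0.0721. Cdk6 read 11.40, 11.31 and 11.21 on the Chrm1-/- arrays, against 11.27, 11.16 and 11.23 on the wild type arrays. Its within-group SD, pooled over both genotypes, was 0.0779, and 7.73% of the genes tested had a smaller one; the median over those genes was 0.220. The difference of 0.09 ± 0.11 (SE) had an interval from -0.17 to 0.34, or 0.889-fold to 1.27-fold. A change of Cdk6 transcript beyond that range lies outside the interval.

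Cdk4 read 10.16, 10.05 and 10.53 on the Chrm1-/- arrays, against 10.45, 10.49 and 10.35 on the wild type arrays. Its pooled within-group SD was 0.185. Chrm1-/- replicates 1 and 2 lay below all wild type arrays, and Chrm1-/- replicate 3 lay above all of them. The difference was -0.18 ± 0.15 (SE), with an interval from -0.55 to 0.19 (0.681-fold to 1.14-fold). Its size depended on single Chrm1-/- arrays. Without Chrm1-/- replicate 3 it was -0.32 ± 0.12 (SE), with an unadjusted p of 0.0412 in limma, where 3.06% of all genes in that fit had an unadjusted p under 0.05, and an adjusted p of 0.9999. Without Chrm1-/- replicate 2 it was -0.09 ± 0.16 (SE).

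The promoter of Cdk4 is shown, with that of Cdk6 beside it, because Cdk4 is a known target of the transcription factor Myc, which binds the E-box CACGTG. The part of Myc in the values of either kinase was not tested. Of the 8 genes 5 had an entry in the RefSeq promoter table (GRCm38.p6), with 6 starts between them. Each sequence gives the 250 bases before a start, 5′ to 3′ on the gene's strand, with matches to the E-box in capitals. Cdk4 lies on the plus strand at chr10:127063285-127063534 and Cdk6 on the plus strand at chr5:3343643-3343892.
Cdk4: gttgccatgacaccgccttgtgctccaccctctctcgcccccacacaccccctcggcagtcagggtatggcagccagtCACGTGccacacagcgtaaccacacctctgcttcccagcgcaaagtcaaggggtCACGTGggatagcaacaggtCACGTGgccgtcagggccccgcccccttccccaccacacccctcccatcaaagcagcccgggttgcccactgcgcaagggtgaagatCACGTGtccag
Cdk6: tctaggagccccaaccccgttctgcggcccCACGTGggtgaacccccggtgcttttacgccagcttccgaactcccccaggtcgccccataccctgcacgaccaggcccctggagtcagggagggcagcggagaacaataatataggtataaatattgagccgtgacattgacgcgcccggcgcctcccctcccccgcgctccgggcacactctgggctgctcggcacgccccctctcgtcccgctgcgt
CACGTG reads the same on both strands. It occurred 4 times before Cdk4 and 1 time before Cdk6, and 0 times before the starts of Ccnd3, Rbl1 and Rbl2. Of 32851 promoters of the same length, 6.02% held at least 1 match and 0.0213%, or 7 promoters, held 4 or more. The cut of 4 equals the count before Cdk4, so this share only places that count. A match describes the letters of the window and is not evidence of binding.

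In the retinoblastoma family, Rbl1 was the steadiest in wild type. Its product p107 is itself made under E2F control and is known to be most abundant in cycling cells. Rbl1 read 9.43, 9.29 and 9.64 on the Chrm1-/- arrays, against 9.57, 9.60 and 9.64 on the wild type arrays. Chrm1-/- replicates 1 and 2 lay below the 3 wild type arrays, and Chrm1-/- replicate 3 equalled the highest of them. The difference was -0.15 ± 0.12 (SE), with an interval from -0.45 to 0.15 (0.731-fold to 1.11-fold).

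The promoter of Rbl1 is shown for its E2F match. It lies on the minus strand at chr2:157204535-157204784 (GRCm38.p6, RefSeq), and the capitals mark TTTCGCGC.
Rbl1: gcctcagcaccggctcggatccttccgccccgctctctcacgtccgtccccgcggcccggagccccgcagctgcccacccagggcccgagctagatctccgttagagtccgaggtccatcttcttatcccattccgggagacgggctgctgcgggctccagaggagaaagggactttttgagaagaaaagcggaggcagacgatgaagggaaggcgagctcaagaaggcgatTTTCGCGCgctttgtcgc
The search covered TTTCCCGC, TTTCGCGC, TTTGCCGC and TTTGGCGC on both strands. Of the 6 starts, that of Rbl1 held the 1 match. Among the 32851 promoters 1.86% held at least 1 of these words.

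Rbl2 encodes p130, the family member that binds E2F4 in resting cells and helps to keep cycle genes silent. It read 9.59, 9.46 and 9.87 on the Chrm1-/- arrays, against 9.57, 9.76 and 9.01 on the wild type arrays. Wild type replicate 3 lay 0.56 below wild type replicate 1, the next lowest of its group, and the other 5 arrays lay between 9.46 and 9.87. The difference of 0.19 ± 0.23 (SE) turned on that array. Without wild type replicate 3 the difference was -0.03 ± 0.17 (SE).

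Rb1, which encodes the retinoblastoma tumour suppressor itself, was the most variable of the 8. The row used for it read 10.13, 10.24 and 9.97 on the Chrm1-/- arrays, against 11.22, 10.66 and 9.69 on the wild type arrays. In Chrm1-/- the values lay within 0.27 of each other, while the wild type values spanned 1.53 and lay on both sides of them. Its within-group SD, 0.556, was larger than that of 91.5% of the genes tested. The difference was -0.41 ± 0.38 (SE), with an interval from -1.32 to 0.50, or 0.399-fold to 1.42-fold. Without wild type replicate 3 it was -0.83 ± 0.21 (SE), with an unadjusted p of 0.00994 in limma, where 4.71% of all genes in that fit had an unadjusted p under 0.05, and an adjusted p of 0.955. Without wild type replicate 1 it was -0.06 ± 0.31 (SE).

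Rb1 is the one gene of the 8 with more than 1 row of its own, and the 4 rows that carry it did not move together. Rows shared with other genes were looked for only for Rb1. A further row that carries Rb1 alone (17308570) read 9.32, 9.58 and 9.97 in Chrm1-/-, against 9.42, 9.48 and 7.98 in wild type. The difference there was 0.66 ± 0.43 (SE), opposite in sign to that of the row used (17308568). Another 2 rows carry both Rb1 and Lpar6, a lysophosphatidic acid receptor gene that lies inside the span of Rb1 in the RefSeq gene table, and they were left out of the fit because they name several genes. The brighter of these (17308600) read 10.66, 10.62 and 10.69 in Chrm1-/- and 10.14, 10.43 and 11.25 in wild type, a difference of 0.05 ± 0.28 (SE). The dimmer (17301886) read 8.99 on all 3 Chrm1-/- arrays and 8.99, 8.40 and 9.28 in wild type, a difference of 0.10 ± 0.23 (SE). The 3 Chrm1-/- values were equal in 1.38% of the rows with a symbol.

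Wild type replicate 3 took opposite places in these rows. It gave the lowest of the 6 values in both rows of Rb1 alone and the highest in both rows shared with Lpar6. Without it the differences were -0.83 ± 0.21 and 0.17 ± 0.21 (SE) in the rows of Rb1 alone and 0.30 ± 0.20 and 0.37 ± 0.13 (SE) in the shared rows, so the row used still had the opposite sign to the other 3. The brighter shared row then had an unadjusted p of 0.038 in limma, and each of the 4 an adjusted p of 0.955 or more. The part of each row's probes in this pattern was not tested. The mean of both rows of Rb1 alone differed by 0.13, so the direction of Rb1 depended on the row. Chrm1-/- arrays were close together in 3 of the 4 rows, with SDs of 0.14, 0.04 and 0, and had an SD of 0.33 in the further row of Rb1 alone.

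**Figure D3:**
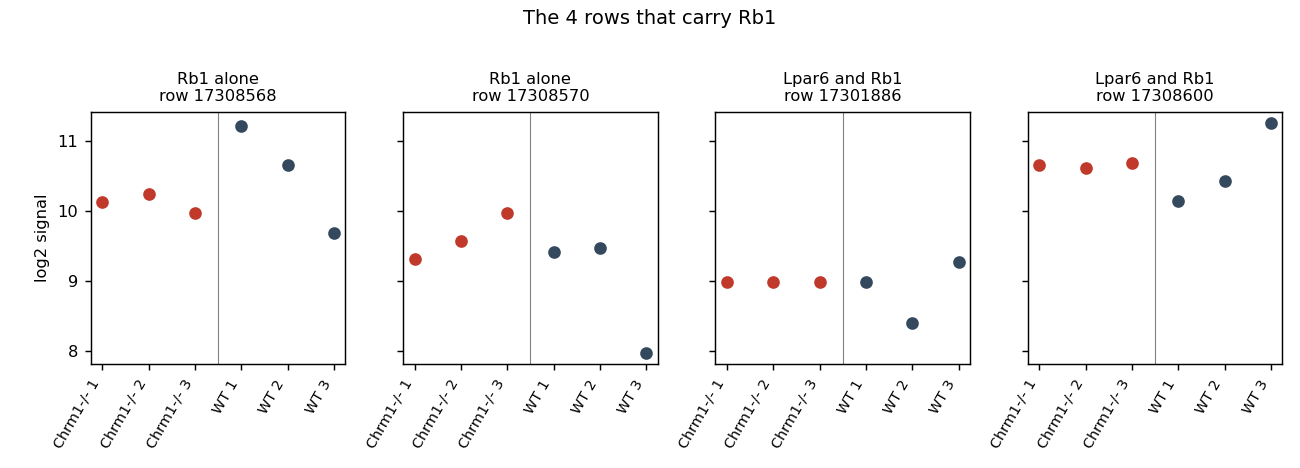
Log2 signal in the 4 rows that carry Rb1, by array, with Chrm1-/- arrays left of the line and wild type (WT) arrays right of it. Wild type replicate 3 is the lowest point in both panels of Rb1 alone and the highest in both panels shared with Lpar6.

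The genes were sorted into 3 sets by the array with their lowest value, after the values were seen, and so the sets are given without a test. Ccnd2, Cdk4 and Rbl1 were lowest in Chrm1-/- replicate 2 and highest in Chrm1-/- replicate 3, a highest value that Rbl1 shared with wild type replicate 3. Likeness was measured as the root mean square difference between 2 genes over the 6 arrays, after each gene's own mean was taken away. It was 0.0478 for Ccnd2 and Rbl1, the closest of the 28 pairs of members, and 0.0781 for Cdk4 and Rbl1. In the order of all genes by likeness to Ccnd2, Rbl1 was number 8, and the median likeness of a gene to Ccnd2 was 0.240. Ccnd1, Ccnd3 and Cdk6 were lowest in wild type replicate 2, with 0.0604 between Ccnd1 and Cdk6. Rbl2 and the row used for Rb1 were lowest in wild type replicate 3, and 0.466 lay between them. The measure is not scaled, so it grows with a gene's own spread, and the median likeness of a gene to Rb1 was 0.538. In the order of likeness to Rb1, Rbl2 was number 2381, ahead of the other members. Between Rbl2 and Cdk4 it was 0.264. There Rbl2 was number 5362 in the order of likeness to Cdk4, with a median of 0.269. On wild type replicate 1, Rb1 deviated from its mean by 0.90 and Rbl2 by 0.03. For comparison, Chrm1-/- replicate 2 was the lowest array for 14% of all genes tested, wild type replicate 2 for 12.9% and wild type replicate 3 for 19.4%.

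**Figure D4:**
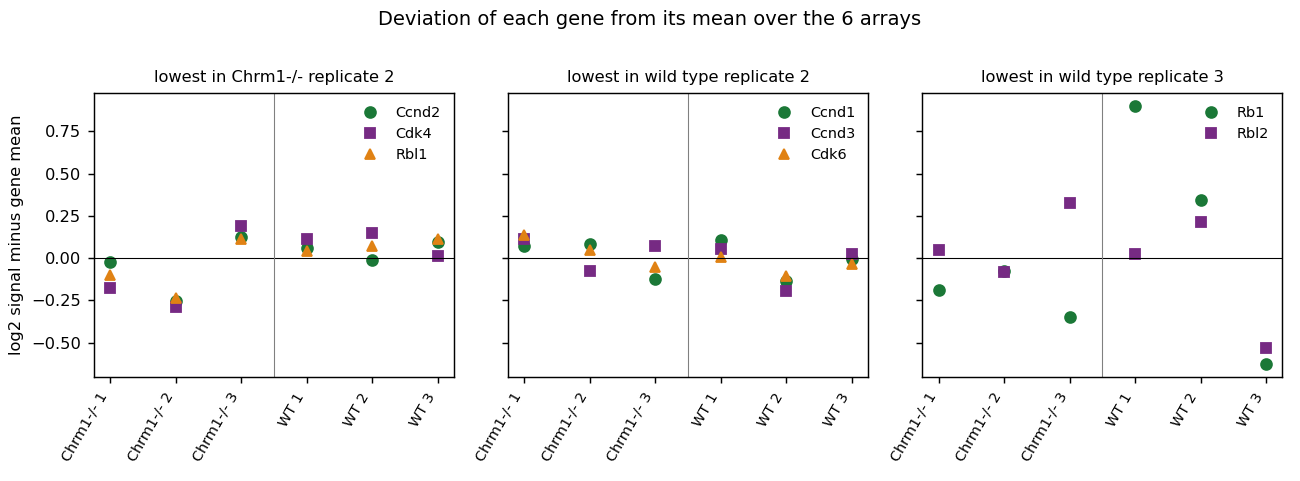
Log2 signal of each gene minus its mean over the 6 arrays, by array, with Chrm1-/- arrays left of the line and wild type (WT) arrays right of it, in 3 panels by the array of the lowest value. Ccnd2, Cdk4 and Rbl1 lie between -0.24 and -0.29 on Chrm1-/- replicate 2 and above 0 on Chrm1-/- replicate 3, and Rb1 and Rbl2 lie at -0.63 and -0.53 on wild type replicate 3.

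By the same measure, the 2 genes most like each member over the 6 arrays were taken from all genes tested. For Ccnd2 they were Rrp36 (0.0306) and Ldoc1 (0.0327), for Ccnd1 Cebpe (0.0261) and Kcna6 (0.0311), and for Ccnd3 Rora (0.0334) and Imp3 (0.0344). For Cdk4 they were Gng2 (0.0452) and Ext2 (0.0489), and for Cdk6 Prss47 (0.0299) and Gm5785 (0.0304). For Rbl1 they were Atg16l2 (0.0273) and Serpinb9b (0.0350), and for Rbl2 Rnf19a (0.0358) and Vps26b (0.0404), of which Rnf19a read 8.45 and Vps26b 9.12 on wild type replicate 3, the lowest array for both. The nearest gene to Rb1, Prepl, was at 0.130, farther than for any other member. The median likeness of a gene was also larger for Rb1, at 0.538, beside 0.2175 to 0.3376 for the other members. With 6 arrays and 11094 genes, near matches of this kind are a description of these arrays.

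Because paralogues can stand in for each other, the difference in log2 signal between each of 7 pairs was compared across genotypes array by array. Its size between 2 genes is set partly by their probes, so only its shift between genotypes is read. The groups overlapped for all 7 pairs. Cdk4 minus Cdk6 was -1.24, -1.26 and -0.68 on the Chrm1-/- arrays, against -0.82, -0.67 and -0.88 on the wild type arrays, a shift of -0.27. Chrm1-/- replicates 1 and 2 lay below the wild type arrays and Chrm1-/- replicate 3 among them.

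The signal of Ccnd2 minus that of Ccnd3 was 2.51, 2.47 and 2.70 in Chrm1-/-, against 2.65, 2.83 and 2.72 in wild type, a shift of -0.17. Ccnd1 minus Ccnd2 shifted by 0.12 and Ccnd1 minus Ccnd3 by -0.05. Rbl1 minus Rbl2 was within 0.07 on the 3 Chrm1-/- arrays, at -0.16, -0.17 and -0.23, against 0.00, -0.16 and 0.63 in wild type. Its shift was -0.34, and -0.11 without wild type replicate 3. Rb1 minus Rbl1 shifted by -0.26 and Rb1 minus Rbl2 by -0.60, and without wild type replicate 3 these shifts were -0.70 and -0.80. With the mean of both rows of Rb1 alone they were 0.28 and -0.07, so the direction of the first also depended on the row.

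Around the 8 genes, 9 lists of the same pathway were counted in the same fit, and 0 of their genes passed the adjusted threshold in limma. An unadjusted p under 0.05 was reached by 2.99% of all genes tested, 1.6% lower and 1.4% higher. The inhibitors that act on the cyclin D kinases come from the INK4 and CIP/KIP families. Of 7 tested, 4 had a higher and 3 a lower mean in Chrm1-/-, with a list median of 0.003. The exception by unadjusted p was Cdkn1b, which encodes p27. It read 8.80, 8.92 and 9.34 in Chrm1-/- and 8.31, 8.69 and 8.19 in wild type, a difference of 0.62 ± 0.20 (SE) with an adjusted p of 0.996 in limma.

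The E2F factors and their DP partners, which the retinoblastoma proteins bind, included 3 of 9 tested genes with an unadjusted p under 0.05. E2f3, an activator of replication genes, averaged 8.88 ± 0.15 in Chrm1-/- and 9.26 ± 0.16 in wild type (SD, n = 3 each), and the groups did not overlap. Tfdp1, the main DP partner, averaged 10.07 ± 0.38 in Chrm1-/- and 10.60 ± 0.17 in wild type (SD, n = 3 each). E2f5, which binds p130, averaged 8.10 ± 0.41 in Chrm1-/- and 7.53 ± 0.18 in wild type (SD, n = 3 each). In that order, the differences of -0.38 ± 0.14, -0.53 ± 0.22 and 0.56 ± 0.23 (SE) each had an adjusted p of 0.996 in limma. The list's median was 0, with 4 genes higher, 4 lower and 1 equal, so the 3 genes did not lie in 1 direction. The list for the DREAM complex, of which p107 or p130 is a part, and its MuvB core had 3 genes higher and 4 lower of 7 tested and a median of -0.01. On wild type replicate 3, the lowest array for 19.4% of all genes tested, the mean of this list lay 0.29 below its mean over all arrays.

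Downstream, 24 of 32 tested E2F target genes had a lower mean in Chrm1-/-, or 75%, where 49.2% of all genes tested did, 7 had a higher and 1 an equal mean, and the list's median was -0.14. This list holds replication genes that were known to lean lower in these data when it was drawn up, so the count is not independent evidence. Groups did not overlap for 5 of the 32, beside 5.79% of all genes tested: Mcm4, Mcm6, Pole and Dnmt1 were lower and Slbp higher. Mcm4, a subunit of the replicative helicase, read 10.17, 10.14 and 9.46 in Chrm1-/-, against 10.36, 10.76 and 10.62 in wild type. Pole, a replicative DNA polymerase gene, averaged 7.79 ± 0.10 in Chrm1-/- and 8.35 ± 0.44 in wild type (SD, n = 3 each). Averaged over the list, genes deviated from their own means by -0.15, -0.03 and -0.01 in the 3 Chrm1-/- samples and by 0.13, 0.04 and 0.02 in the 3 wild type samples. Without Chrm1-/- replicate 1 the list's median was -0.07.

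The later cyclins and kinases had 1 of 5 tested genes higher and 4 lower, with a median of -0.28. Cdk2, the partner of cyclin E, averaged 8.79 ± 0.23 in Chrm1-/- and 9.09 ± 0.21 in wild type (SD, n = 3 each), and Ccne1, cyclin E1, had a difference of 0.19 ± 0.20 (SE). Without Chrm1-/- replicate 2 the list's median was -0.07. The kinase that activates CDKs and the CDK4/6 chaperone had 4 of 4 tested genes at a higher mean, from 0.02 for Ccnh to 0.25 for Cdk7, and 0 of them had an unadjusted p under 0.05. Transcription inputs of the D cyclins had 12 of 19 higher and 7 lower, with a median of 0.03. Stat5a, which relays cytokine signals to Ccnd2, read 8.84, 8.64 and 8.64 in Chrm1-/-, against 8.15, 8.46 and 8.50 in wild type, a difference of 0.34 ± 0.14 (SE) with an unadjusted p of 0.0505 in limma. Genes of D cyclin turnover had 6 of 14 higher and a median of -0.04, with the cyclin D-binding protein gene Ccndbp1 at 0.23 ± 0.13 (SE). Retinoblastoma partners had 7 of 17 higher and a median of -0.01, with Rbbp9 at -0.46 ± 0.22 (SE).

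**Figure D5:**
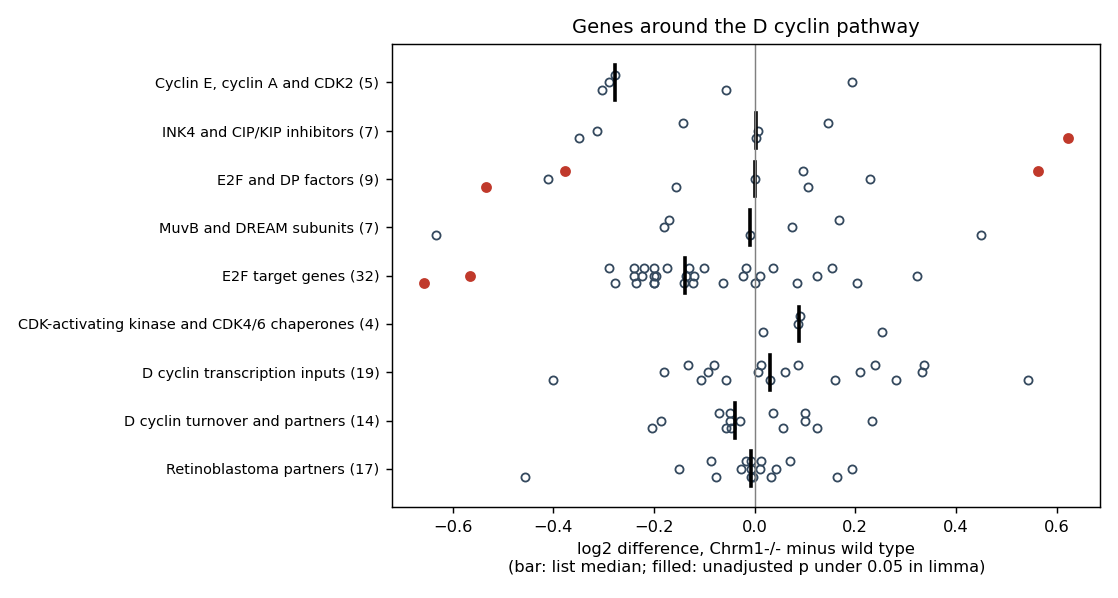
Log2 difference, Chrm1-/- minus wild type, of each tested gene in 9 lists around the pathway, with the number of genes after the list's name; black bars are list medians and filled points have an unadjusted p under 0.05 in limma. The filled points are Cdkn1b and E2f5 to the right and E2f3, Tfdp1, Mcm4 and Pole to the left, and the E2F target genes have their median at -0.14.

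Markers of other cells that the sort could hold were counted too. For bulk RNA, fewer cells of a type and less RNA per cell cannot be told apart. Of 14 granulocyte precursor markers on the array 8 were bright enough to test, 3 higher and 5 lower, and their mean log2 signal was 8.14 to 8.43 on the Chrm1-/- arrays and 8.40 to 8.47 on the wild type arrays; the late granule and neutrophil genes Ltf, Camp, Ngp, S100a8 and S100a9 lay below the signal needed for testing. Erythroid markers (9 tested) ran from 8.59 to 8.91 in Chrm1-/- and from 8.63 to 8.90 in wild type. Lymphoid-primed progenitor markers (8 tested, 4 higher, 3 lower and 1 equal, with a median difference of 0.01) ran from 9.39 to 9.47 in Chrm1-/-. In wild type they ran from 9.15 to 9.44, and replicate 3 was the lowest array. In that list Cd52, a lymphocyte surface glycoprotein gene, differed by 0.76 ± 0.14 (SE) with groups that did not overlap, as for 5.79% of all genes tested. Monocyte and macrophage markers (6 tested, 3 higher and 3 lower) ran from 8.06 to 8.54 in Chrm1-/- and from 8.17 to 8.51 in wild type. Their median difference was 0.04, and Csf1r, Fcgr1 and Adgre1 lay below the signal needed for testing. The groups did not overlap for Cd68, a macrophage gene, at -1.07 ± 0.39 (SE). The size of that difference rested partly on wild type replicate 3, at 10.25. Without that array the wild type mean of Cd68 was 8.895 instead of 9.35, still above the Chrm1-/- mean of 8.27. Megakaryocyte markers (6 tested, 3 higher and 3 lower) ran from 7.61 to 8.13 in Chrm1-/- and from 7.87 to 7.98 in wild type. Groups did not overlap for 2 of these 6, F2rl2 and the platelet receptor gene Treml1, beside 5.79% of all genes tested. F2rl2 differed by 1.13 ± 0.36 (SE) and the platelet gene Pf4 by -0.88 ± 0.37 (SE). Cd52, Cd68 and F2rl2 had unadjusted p values of 0.0013, 0.0309 and 0.0199 in limma, and 0 marker genes passed the adjusted threshold. Mast cell and basophil markers (3 tested) ran from 8.59 to 9.73 in Chrm1-/- and from 9.09 to 9.70 in wild type, and stroma and endothelium markers (4 tested) from 8.24 to 8.49 in Chrm1-/- and from 8.26 to 8.39 in wild type. Of T and NK cell markers 1 of 8 on the array was tested, and of B cell markers 2 of 7. The part of other cells in the values of the 8 genes was not tested.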

How the data were processed

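HSCs of 2 genotypes were profiled on 6 arrays, 3 per genotype, with groups taken from the labelled genotype. According to the series design text, RNA was amplified with a NuGEN kit, hybridised to Affymetrix mouse gene 2.0 ST arrays and processed by the authors in the Affymetrix analysis software; for its version, summarization and normalization, nothing is given in the sources used. The authors deposited 1 value per row and array, taken as a log2 signal from its range of 3.02 to 13.67. Rows were named from the platform table: 23521 had 1 symbol and 1814 several, which were left out. The row with the highest mean was kept per gene, giving 22180 genes, of which 11094 with a mean at or above the median were tested. Differences are Chrm1-/- minus wild type from limma 3.58.1 in R 4.3.3 (lmFit and eBayes, two-sided, Benjamini-Hochberg over all genes tested, threshold 0.05); SEs are moderated and 95% intervals are per gene. The number of arrays limits the precision. The fit was tested on simulated data.

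Named from each pathway list were up to 4 genes of smallest unadjusted p, and the 2 genes most like each member; Mcm6, Dnmt1, Treml1 and the marker genes below the signal filter were named after their values were seen. The members and lists were chosen with earlier results of these data known. Alternatives covered the filter, the scaling, the row per gene, moderation, array weights, the replicate block and leaving out each array; other rows of Rb1 were added after seeing the data. Protein sequences were not used here. Tables were joined in pandas 2.3.3 and plots drawn in matplotlib 3.10.9 (Python 3.11.15).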

Additional observations from a re-analysis of the deposited data

How the results depend on the processing

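Over 19 alternatives 0 of the 8 genes passed the adjusted threshold in limma; their lowest adjusted p was 0.955. Of 82 values of the 8 genes under alternatives other than leaving out an array, 78 kept their sign; the other 4 were all of Rb1, at 0.13 as the mean of both its own rows and, in rows chosen after seeing the data, at 0.66, 0.10 and 0.05, against -0.41. With the 75th percentile of signal as filter Ccnd1 was not tested. Leaving out 1 array turned 6 of 48 signs, and the cause was not tested: differences ran from -0.038 to 0.092 for Ccnd1, -0.18 to 0.005 for Ccnd2, -0.0017 to 0.13 for Ccnd3, -0.32 to -0.09 for Cdk4, 0.04 to 0.13 for Cdk6, -0.83 to -0.06 for Rb1, -0.24 to -0.07 for Rbl1 and -0.025 to 0.35 for Rbl2. Shifts between paralogues ran from -0.02 to 0.28 (Ccnd1-Ccnd2), -0.15 to 0.03 (Ccnd1-Ccnd3), -0.24 to -0.12 (Ccnd2-Ccnd3), -0.46 to -0.17 (Cdk4-Cdk6), -0.70 to 0.11 (Rb1-Rbl1), -0.80 to -0.32 (Rb1-Rbl2) and -0.50 to -0.11 (Rbl1-Rbl2), and with the mean of a gene's rows Rb1-Rbl2 was -0.067 and Rb1-Rbl1 0.28, against -0.26.

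The list medians that moved by more than 1 SD of the list mean were those of the later cyclins and CDK2 (-0.11 with no filter, -0.16 with array weights, -0.22 to -0.067 on leaving out 1 array), the inhibitors (0.62 past the 75th percentile, where 1 gene was left, and -0.19 to 0.035), E2F and DP factors (-0.078 with no filter, -0.27 past the 75th percentile, -0.10 to 0.077) and E2F targets (-0.17 to -0.071). Over all genes 0 passed the adjusted threshold and 332 had an unadjusted p under 0.05, 567 with no filter and 169 past the 75th percentile; on leaving out 1 array these were 0 to 1 and 335 to 522, the highest without wild type replicate 3, and without moderation 1 gene, Apmap, passed. The replicate numbers did not pair the arrays, as the deviations of same-numbered arrays correlated at -0.03, 0.01 and -0.01; with the replicate block 396 genes had an unadjusted p under 0.05, 0 passed and the 8 differences kept their values.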
